A study of Homo sapiens with 4 samples.

Results

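Transcript levels of 8 genes of glioblastoma biology, EGFR, NF1, CDK4, RB1, MDM4, MGMT, IDH1 and ATRX, were read from gene-level RNA-seq counts of T98G cells. The genes were chosen by name, and all 8 were found among the 20913 genes of the table. T98G is an established human glioblastoma line, and the labels give its cell type as astroblastoma. The study compared 2 libraries of cells carrying a vector with 2 libraries of cells overexpressing LGP2, whose columns carry the word flag, and the replicates are numbered 2 and 3 in each group. DHX58 encodes LGP2, a relative of the viral RNA sensor RIG-I that lacks the signalling domains of that sensor. The promoter of the construct, the number of clones and any separation of cultures are not stated, so p-values reflect no more than the spread among these libraries, which may be technical. The growth text of the labels names 293T cells in place of T98G.

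These genes stand for the routes by which glioblastomas gain growth signals, pass the cell cycle checkpoint and survive treatment. EGFR is the receptor tyrosine kinase most often amplified in glioblastoma, and NF1 encodes neurofibromin, a GTPase-activating protein that switches RAS off. CDK4 phosphorylates the retinoblastoma protein RB1 and so releases E2F factors, and MDM4 is a relative and partner of the ubiquitin ligase MDM2. MGMT removes alkyl groups from guanine and repairs the lesion on which the drug temozolomide depends, IDH1 is the cytosolic isocitrate dehydrogenase that is mutated in lower-grade glioma, and ATRX is a chromatin remodeller that deposits histone H3.3 and is lost in many IDH-mutant astrocytomas.

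Promoter sequence was taken for the member with the lowest count, MGMT, for the member with the highest, CDK4, and for NF1, whose window holds a response element that no other member window holds. Each is 300 bases from RefSeq on GRCh38.p14, from 250 bases before to 50 after the annotated start, written 5′ to 3′ on the strand of the gene, with every CpG in capitals.
MGMT (chr10:129466991-129467290, plus strand): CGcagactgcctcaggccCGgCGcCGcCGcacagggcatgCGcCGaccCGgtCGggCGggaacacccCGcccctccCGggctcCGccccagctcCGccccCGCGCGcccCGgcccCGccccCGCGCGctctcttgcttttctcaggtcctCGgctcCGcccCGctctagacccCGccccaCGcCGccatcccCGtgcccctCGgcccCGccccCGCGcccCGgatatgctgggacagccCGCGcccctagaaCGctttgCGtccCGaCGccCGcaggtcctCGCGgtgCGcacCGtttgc
NF1 (chr17:31094727-31095026, plus strand): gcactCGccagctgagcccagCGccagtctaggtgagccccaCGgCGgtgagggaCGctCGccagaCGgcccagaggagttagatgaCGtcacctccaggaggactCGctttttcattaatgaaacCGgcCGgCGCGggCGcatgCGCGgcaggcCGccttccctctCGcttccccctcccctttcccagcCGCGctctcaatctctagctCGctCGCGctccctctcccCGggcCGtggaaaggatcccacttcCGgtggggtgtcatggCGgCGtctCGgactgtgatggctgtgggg
CDK4 (chr12:57752261-57752560, minus strand): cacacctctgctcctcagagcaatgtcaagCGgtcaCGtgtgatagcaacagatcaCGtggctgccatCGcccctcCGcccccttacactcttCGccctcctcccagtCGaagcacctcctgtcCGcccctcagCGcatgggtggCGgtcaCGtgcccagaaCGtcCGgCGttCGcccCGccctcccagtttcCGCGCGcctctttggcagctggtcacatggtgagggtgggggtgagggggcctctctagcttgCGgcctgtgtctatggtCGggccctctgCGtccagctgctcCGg
The MGMT window held 45 CpG dinucleotides, more than 96.5% of the 35116 promoters of that length, whose median was 14. Methylation of this CpG-rich stretch is the mark by which MGMT silencing is judged in glioblastoma, and no methylation was measured here. The NF1 window held 29 and the CDK4 window 23. NF1 was the 1 member with the cyclic AMP response element TGACGTCA, searched on both strands, which 1.85% of all promoters held. The GC box GGGCGG, searched on both strands, was in the windows of MGMT, CDK4, EGFR and IDH1 and in 45.0% of all promoters. The E2F-type words TTTCCCGC and TTTGGCGC, each searched on both strands, were in none of the windows, against 1.63% and 0.652% of all promoters. Of the 8 genes 7 matched the RefSeq promoter table, EGFR and IDH1 with 2 entries each, and ATRX did not match. The entries for RB1, CDK4 and IDH1 and the second entry for EGFR lie inside the spans that GENCODE 29 gives these genes, away from the annotated gene start.

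Library totals ran from 56033379 to 63932198 counts. Group means are given below ± SD of n = 2 libraries, with vector first. DHX58 was at 5.90 and 9.57 counts per 1000000 counts of the library total (CPM) in vector replicates 2 and 3, and at 544 and 538 CPM in LGP2 replicates 2 and 3, which matches the labels. Of 10 glioma and mesenchymal markers 9 reached 1 CPM, with VIM between 2922 and 3829 CPM. Of 11 astroglial markers 4 did so, namely SLC1A3, GJA1, SOX9 and OLIG2. The 7 astroglial markers measured had a summed level of 68.5 to 71.4 CPM in vector and 63.0 to 64.3 CPM with LGP2. Among them GFAP stayed at or under 0.696 CPM, and S100B, AQP4, FABP7 and SOX2 were not analysed here. Over the 6 microglia and macrophage markers 2 were measured, with a summed level of 0.641 to 1.69 CPM in vector and 0.839 to 1.31 CPM with LGP2. Of 6 neuron markers 3 were measured (summed level 5.29 to 8.18 CPM in vector and 5.64 to 8.59 CPM with LGP2), of 5 oligodendrocyte markers 1 (0.501 to 0.704 and 0.607 to 1.74 CPM), and of 4 endothelial markers 2 (3.21 to 5.33 and 5.68 to 8.21 CPM). CDKN2A, which encodes the CDK4 inhibitor p16, had 4 to 20 counts per library, while its neighbour CDKN2B had 997 to 1176, both chosen after their values were seen.

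For none of the 8 genes did the difference between LGP2-overexpressing and vector cells exceed the spread between libraries by the test used. By edgeR's quasi-likelihood test 0 of 8 were called at an adjusted p under 0.05, against 0.0168% of the 17863 genes tested. At an unadjusted p under 0.05 in this fit there were also 0 of 8, against 3% of all tested genes higher and 1.46% lower. RB1 had an unadjusted p of 0.0346 by limma-voom and of 0.0151 by edgeR with the replicate number as a block. Its log2 fold change without vector replicate 3 was 0.96, as given below. At an adjusted p under 0.05 DESeq2 and limma-voom called 0 of 8, against 0.11% and 0.0336% of all genes. No member was called with no filter, with a filter of 5 CPM in 2 libraries (which removed MGMT), with the replicate number as a block or with GC and length offsets, where 0.00478%, 0.0552%, 0.0448% and 0.0229% of all genes were. The same held without vector replicate 2 and without either LGP2 overexpression library, replicate 2 or replicate 3, where 0.418%, 0.0107% and 0.0376% were. The adjusted p was 0.998 for every member, and log2 fold changes ran from -0.098 for MGMT to 0.49 for RB1. Of the 8 members 6 lay above 0, where 48.7% of all tested genes did, and their median was 0.18 against -0.0080 over all genes. That median depended on single libraries: leaving out LGP2 replicate 3 gave 0.033 and leaving out LGP2 replicate 2 gave 0.27, against 0.10 and 0.31 when vector replicate 2 or 3 was left out. With GC and length offsets it was -0.012, where the median over all tested genes was -0.057. For 7 of the 8 the 95% interval lay within a 2-fold change in both directions, as it did for 61.1% of all tested genes. RB1 was the exception. An exact permutation test of 2 libraries against 2 cannot give a two-sided p under 0.333 for any single gene.

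**Figure D1:**
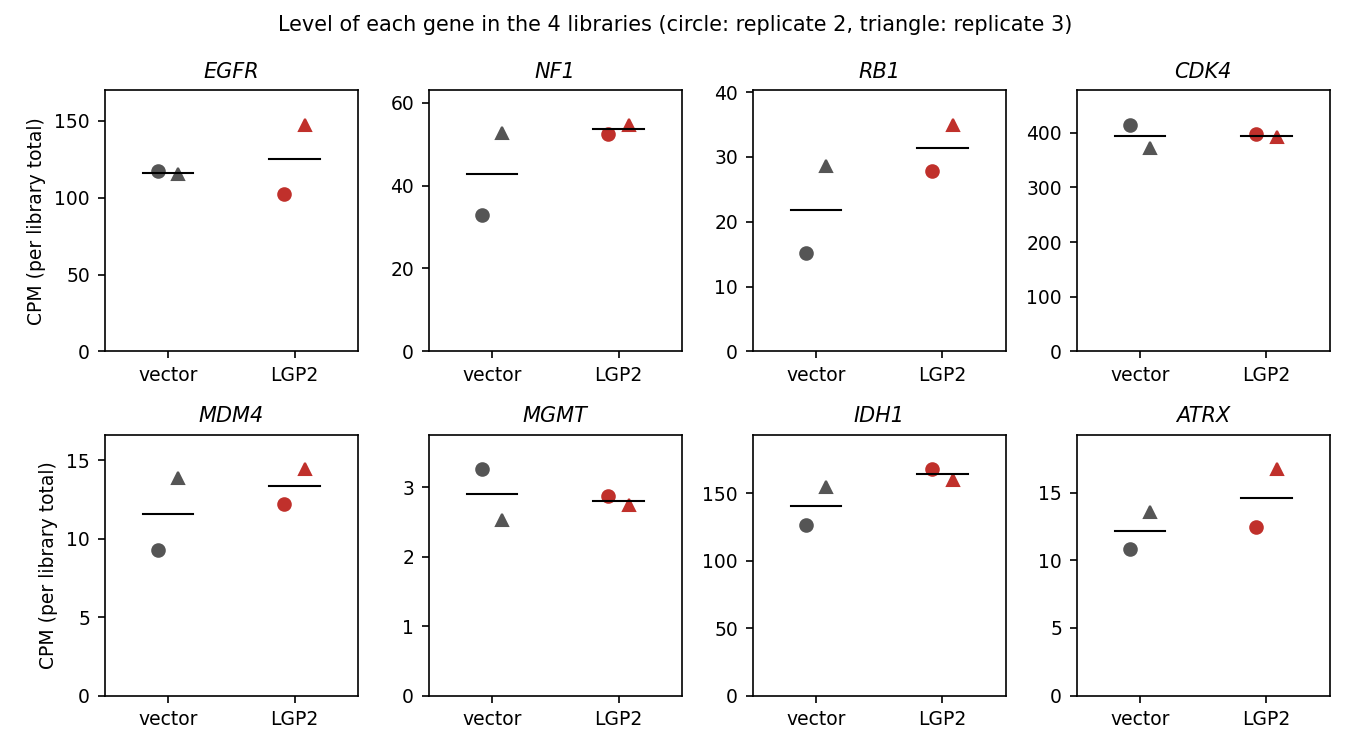
Level of each of the 8 genes in CPM (axes from 0), in vector and LGP2-overexpressing T98G cells. Circles are replicate 2, triangles replicate 3, and the line is the group mean of 2 libraries. IDH1 is the 1 gene whose groups do not overlap, and vector replicate 2 is the lowest library for NF1, RB1, MDM4, IDH1 and ATRX.

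EGFR was one of the more abundant members and its difference between the groups did not pass the test. It lies on chromosome 7 from 55019021 to 55211628 on the plus strand (GENCODE 29, GRCh38) and is protein coding. Its level was 117 and 115 CPM in vector replicates 2 and 3 and 103 and 148 CPM in LGP2 replicates 2 and 3. The LGP2 libraries thus lay on either side of the vector pair, whose values were close together. Its fit gave a log2 fold change of 0.055 (SE 0.17, 95% interval -0.33 to 0.44), which leaves room for a fold between 0.795 and 1.36. Its sign followed single LGP2 libraries, at -0.21 when LGP2 overexpression replicate 3 was left out and 0.28 when replicate 2 was. Counts per gene cannot separate full-length EGFR from its deletion variants. The antisense RNA EGFR-AS1, which overlaps 1.49% of the exonic bases of EGFR, had counts of 9 and 5 in vector replicates 2 and 3 and of 0 and 5 in LGP2 replicates 2 and 3, where a count of 0 allows up to 0.0535 CPM.

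NF1 (chromosome 17, 31094927 to 31382116, plus strand) had 1 library that stood apart. It was at 32.9 CPM in vector replicate 2 and 52.7 CPM in vector replicate 3, and at 52.3 and 54.7 CPM in LGP2 replicates 2 and 3. Vector replicate 3 lay between the LGP2 libraries, so the groups overlapped, and vector replicate 2 alone lay apart. NF1 had a log2 fold change of 0.29 (SE 0.20, 95% interval -0.15 to 0.72). It was 0.027 without vector replicate 2 and 0.60 without vector replicate 3 (adjusted p = 0.0621 by edgeR, with the spread taken from the LGP2 pair).

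Genes around EGFR and NF1 in the RAS pathway showed no call in either direction. Over all tested genes 0.0168% were called and 48.7% were above 0, and these shares apply to each list below. Of 18 tested EGFR ligands, partner receptors and adaptors 8 were above 0 and 10 under it, the median log2 fold change being -0.032. The 2 most abundant were the adaptor SHC1, at 248 ± 24.2 CPM in vector cells against 260 ± 16.9 CPM, and ERRFI1, an inhibitor of the EGFR kinase, at 195 ± 2.63 and 165 ± 6.11 CPM. Both LGP2 libraries were below both vector libraries for ERRFI1, as for 13.3% of all tested genes, and its difference was -0.29 on the log2 scale (SE 0.14). Of 18 tested RAS GTPase-activating proteins, RAS, RAF and MEK genes 7 were above 0 and 11 under it, the median being -0.11. MAP2K2, which encodes the kinase MEK2, was at 123 ± 3.96 and 112 ± 1.34 CPM.

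CDK4 was the most abundant member and the steadiest. It lies on chromosome 12 from 57747727 to 57756013 on the minus strand. Its level was 415 and 372 CPM in vector replicates 2 and 3 and 398 and 392 CPM in LGP2 replicates 2 and 3. The LGP2 libraries lay between the vector libraries, and the highest library exceeded the lowest 1.12-fold. The fit gave a log2 fold change of -0.045 (SE 0.16, 95% interval -0.40 to 0.31), and its sign turned with scaling by library totals alone, at 0.0047. In GENCODE 29 TSPAN31, which encodes a tetraspanin, lies on the opposite strand and covers 43.2% of the exonic bases of CDK4. The use of strand in counting is not stated, so reads of the pair cannot be told apart with certainty. TSPAN31 itself was at 46.3 ± 6.21 CPM in vector cells against 44.8 ± 4.02 CPM.

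RB1 (chromosome 13, 48303726 to 48599436, plus strand) had the largest difference of the 8 and also the largest gap between vector libraries. It was at 15.1 CPM in vector replicate 2 and 28.6 CPM in vector replicate 3, a 1.89-fold gap, and at 27.9 and 35.0 CPM in LGP2 replicates 2 and 3. Vector replicate 3 was above LGP2 replicate 2, so the groups overlapped. Its log2 fold change was 0.49 (SE 0.26, 95% interval -0.089 to 1.07). The interval reached from a fold of 0.940 to 2.09, so a 2-fold higher level was not excluded at this number of libraries. Without vector replicate 3 RB1 passed, with a log2 fold change of 0.96 (adjusted p = 0.0155 by edgeR), in a fit with a single vector library in which 2.31% of all genes passed. Without vector replicate 2 the log2 fold change was 0.14.

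The genes that CDK4 and RB1 act with likewise gave no call. Of 20 tested genes of the CDK4-RB axis 7 were above 0 and 13 under it, the median being -0.075. Calls numbered 0, against 0.0168% of all tested genes, of which 48.7% were above 0. Cyclin D1 (CCND1), the activating partner of CDK4, was at 256 ± 17.1 and 259 ± 4.41 CPM, and cyclin D3 (CCND3) at 138 ± 1.38 and 135 ± 5.77 CPM. RBL1, which encodes p107, a relative of RB1, had the largest difference of the list, at 17.5 ± 2.09 and 29.6 ± 6.36 CPM, and was chosen after its values were seen. Its log2 fold change was 0.72 (SE 0.20, adjusted p = 0.963 by edgeR), between 0.50 and 0.91 without any 1 library, and 0.43 with the GC and length offsets. CDKN1A, which encodes the CDK inhibitor p21 and was chosen in the same way, was at 115 ± 0.227 and 93.6 ± 1.75 CPM, a difference of -0.34 on the log2 scale (SE 0.14). Of 18 tested E2F targets of S phase entry 9 were above 0 and 9 under it, the median being 0.0040. PCNA, the DNA polymerase clamp, was at 361 ± 42.2 and 368 ± 5.78 CPM, and RRM1, a subunit of ribonucleotide reductase, at 263 ± 13.3 and 339 ± 10.0 CPM. The RRM1 difference was 0.32 on the log2 scale (SE 0.14), 0.16 with the GC and length offsets described below.

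MDM4 (chromosome 1, 204516379 to 204558120, plus strand) was at 9.28 and 13.8 CPM in vector replicates 2 and 3 and at 12.2 and 14.5 CPM in LGP2 replicates 2 and 3. Both LGP2 libraries lay above vector replicate 2, and vector replicate 3 lay between them. MDM4 had a log2 fold change of 0.17 (SE 0.23, 95% interval -0.33 to 0.67), and -0.050 without vector replicate 2. Counts per gene do not separate full-length MDM4 from its short splice form. Of 15 tested genes of the MDM2 and MDM4 pathway 9 were above 0 and 6 under it, the median being 0.11. Among these genes 0 were called, against 0.0168% of all tested genes, of which 48.7% were above 0. Without any 1 library the median of the pathway was between 0.010 and 0.052, and with GC and length offsets it was -0.042. The most abundant were the ribosomal proteins RPL11 and RPL5, which bind MDM2, at 1462 ± 260 and 1301 ± 28.7 CPM and at 1245 ± 160 and 1211 ± 112 CPM.

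MGMT (chromosome 10, 129467184 to 129768007, plus strand) was transcribed at a low level in every library. It was at 3.27 and 2.53 CPM in vector replicates 2 and 3, from 209 and 151 counts, and at 2.87 and 2.75 CPM in LGP2 replicates 2 and 3, from 161 and 174 counts. Both LGP2 libraries lay between the vector libraries. The exact Poisson 95% intervals, which cover counting error only, were 2.84 to 3.74 CPM and 2.14 to 2.97 CPM in vector, and 2.45 to 3.35 CPM and 2.36 to 3.19 CPM with LGP2, and each overlapped the others. MGMT had a log2 fold change of -0.098 (SE 0.34, 95% interval -0.85 to 0.65), the widest interval of the 8 genes, and 0.15 without vector replicate 2. The fold could thus lie between 0.556 and 1.57. An antisense transcript, AL157832.2, overlaps 8.04% of the exonic bases of MGMT and was not analysed here.

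Other repair genes that bear on alkylating drugs were also without a call, where 0.0168% of all tested genes were called and 48.7% were above 0. Of 17 tested alkylation and mismatch repair genes 11 were above 0 and 6 under it, the median being 0.12, which was 0.016 without vector replicate 2. APEX1, the endonuclease of base excision repair, was at 174 ± 11.3 CPM in vector cells against 200 ± 20.7 CPM, and PARP1 at 160 ± 26.8 and 169 ± 3.76 CPM.

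IDH1 (chromosome 2, 208236227 to 208266074, minus strand) was the 1 member whose groups did not overlap. It was at 126 and 154 CPM in vector replicates 2 and 3 and at 168 and 160 CPM in LGP2 replicates 2 and 3. Both LGP2 libraries were higher than both vector libraries, as for 19% of all tested genes, and the gap between vector replicate 3 and the nearest LGP2 library was smaller than that between the vector libraries. IDH1 had a log2 fold change of 0.18 (SE 0.14, 95% interval -0.14 to 0.50). It ran from 0.091 without vector replicate 2 to 0.28 without vector replicate 3. Gene-level counts do not show whether the transcripts carry a mutation. Its antisense RNA IDH1-AS1 overlaps 1.99% of its exonic bases and was at 1.95 ± 0.232 and 1.58 ± 0.492 CPM. Of 16 tested genes for isocitrate dehydrogenases and enzymes that use 2-oxoglutarate 9 were above 0 and 7 under it, the median being 0.0029, which was -0.066 without vector replicate 2 and 0.13 without vector replicate 3. The mitochondrial enzymes IDH3B and IDH2 were at 174 ± 16.8 and 186 ± 6.16 CPM and at 178 ± 1.41 and 163 ± 8.95 CPM.

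ATRX (chromosome X, 77504878 to 77786233, minus strand) was at 10.8 and 13.5 CPM in vector replicates 2 and 3 and at 12.4 and 16.8 CPM in LGP2 replicates 2 and 3. LGP2 replicate 2 lay between the vector libraries. ATRX had a log2 fold change of 0.22 (SE 0.21, 95% interval -0.26 to 0.69), and it was 0.0040 without LGP2 overexpression replicate 3. Of 16 tested genes for its partner DAXX, histone H3.3 and telomere maintenance 7 were above 0 and 9 under it, the median being -0.12. In this list 0 were called, against 0.0168% of all tested genes, of which 48.7% were above 0. The histone genes H3-3B and H3-3A were at 863 ± 73.6 and 770 ± 80.8 CPM and at 253 ± 3.20 and 239 ± 6.11 CPM. TERT, the catalytic subunit of telomerase, chosen after its values were seen, had counts of 52 and 58 in vector cells against 57 and 94 in LGP2 cells. In CPM these were 0.813 and 0.972 against 1.02 and 1.48. Both LGP2 libraries were thus above both vector libraries, as for 19% of all tested genes (log2 fold change 0.44, SE 0.52, not called).

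**Figure D2:**
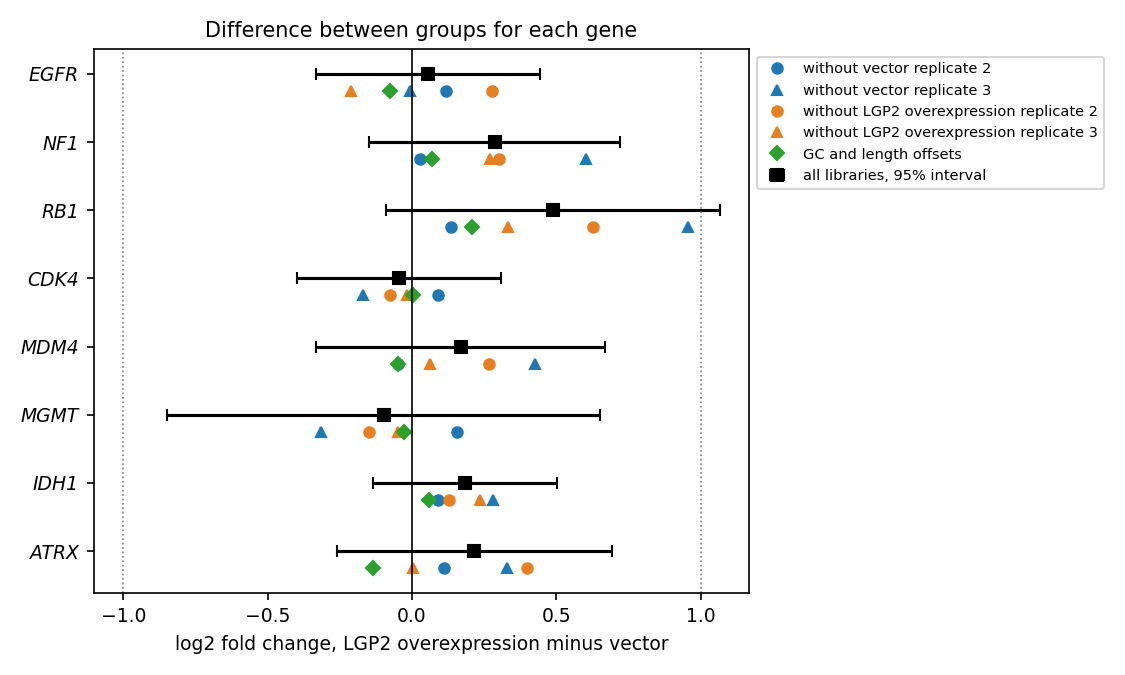
Log2 fold change of each gene, LGP2 overexpression minus vector. Squares with bars are the fit to all 4 libraries with its 95% interval, and coloured marks are fits without 1 library and the fit with GC and length offsets. Every bar crosses 0, RB1 alone has a bar that passes the dotted line of a 2-fold rise, and EGFR, CDK4, MDM4, MGMT and ATRX have marks on both sides of 0.

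Per kilobase of the longest coding transcript the 8 genes spanned a wide range of levels, with CDK4 highest and ATRX lowest. Mean levels were 190 CPM per kilobase for CDK4, 62.3 for IDH1, 12.3 for EGFR, 5.56 for RB1, 3.88 for NF1, 1.62 for MGMT, 1.24 for MDM4 and 1.20 for ATRX. The ranges over the 4 libraries of neighbours in this order overlapped for RB1 and NF1 and for MDM4 and ATRX, and the lowest value for MGMT, 1.439, lay just above the highest for MDM4, 1.435. On this scale 97.9% of tested genes with a known length had a lower level than CDK4, 72.5% than EGFR, 37.8% than MGMT and 33.5% than ATRX.

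Vector replicate 2 was the lowest library for 5 of the 8 genes, against 39.0% of all tested genes, and LGP2 replicate 3 was the highest for 5, against 31.6%. Relative to the mean log2 CPM of the other libraries, vector replicate 2 was lower by 1.00 for RB1, 0.69 for NF1, 0.54 for MDM4, 0.38 for ATRX and 0.35 for IDH1. It was higher by 0.27 for MGMT and 0.10 for CDK4, and EGFR was at -0.041. The same library was low across the transcriptome for long and AT-rich transcripts: the median over all genes was -0.29 in the longest quartile by transcript length, which holds NF1, RB1, EGFR, ATRX and MDM4, and 0.089 in the shortest quartile. In the quartile with the lowest GC content, which holds NF1, RB1, ATRX and MDM4, it was -0.34, and in the highest, which holds MGMT, 0.041.

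**Figure D3:**
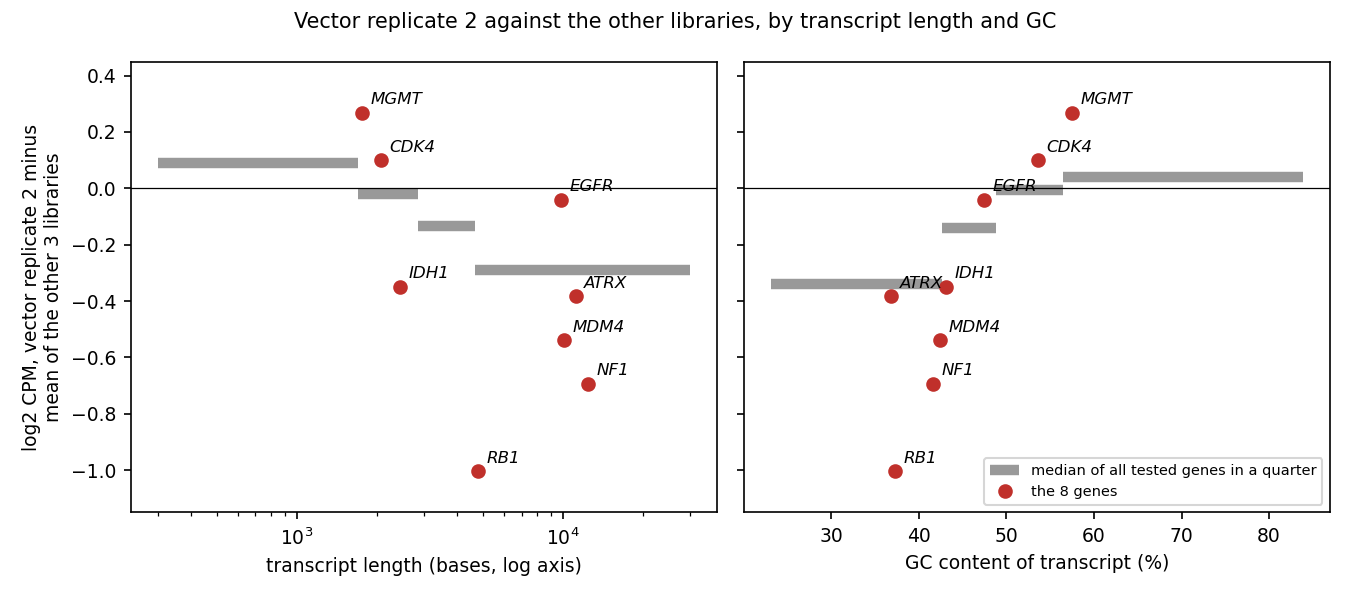
Log2 CPM of vector replicate 2 minus the mean of the other libraries, against transcript length (left, log axis, outer bars cut at 300 and 30000 bases) and GC content (right). Grey bars are medians over all tested genes in each quartile and red points are the 8 genes. RB1, NF1, MDM4 and ATRX lie at or below the bars of long and AT-rich genes, and MGMT lies above its own.

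The difference between the groups also varied with GC content over all genes. Over all 4184 genes of the lowest GC quartile the median log2 fold change, LGP2 against vector, was 0.18, and for the 4 members in it the median was 0.25. Offsets for GC and length, an alternative added after seeing the data, were fitted to the trends of each of these same libraries. By construction they take out differences between the groups that follow GC or length, whatever their source, which was not tested. With these offsets the medians of that quartile and of its 4 members were -0.065 and 0.010. RB1 was then at 0.21, NF1 at 0.068 and IDH1 at 0.058, while MDM4 was at -0.048, EGFR at -0.077 and ATRX at -0.14.

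Each member was also set beside the genes whose profile over the libraries was most like its own. Likeness was measured as the root mean square difference between centred log2 CPM values over the 4 libraries, over protein-coding genes averaging 10 CPM or more. For RB1 63 of 8966 genes lay within 0.1, the fewest of any member, and PIK3R1, a regulatory subunit of PI3 kinase, was the nearest at 0.0214. For NF1 318 genes lay within that distance and HIPK3 was nearest, at 0.0065, and for CDK4 2442 genes did and FBXO31 was nearest, at 0.0038. The nearest gene was CRBN for EGFR at 0.0111, DHX30 for MGMT at 0.0073, ERLIN2 for IDH1 at 0.0095, TRAPPC6B for ATRX at 0.0130 and AP1G1 for MDM4 at 0.0086. Among the members MGMT and CDK4 were closest to each other, at 0.0786, followed by NF1 and MDM4 at 0.0968. CDK4, with the most near genes, had the flattest profile of the members, its highest library exceeding its lowest 1.12-fold. RB1, with the fewest, had the least flat, at 2.31-fold. Over 4 libraries a close match need not mean shared regulation, which was not tested.

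Further genes that are recurrently altered in glioma also gave no call. Of 17 tested 10 were above 0 and 7 under it, the median being 0.040. FGFR1, a growth factor receptor, was at 130 ± 10.4 CPM in vector cells against 138 ± 3.64 CPM, and FUBP1, a DNA-binding regulator lost in oligodendroglioma, at 128 ± 4.13 and 129 ± 18.1 CPM. Over the 9 lists 149 of 157 genes were tested and 0 were called, against 0.0168% of all tested genes. At an unadjusted p under 0.05 by edgeR's quasi-likelihood test 8 listed genes were higher and 3 lower, where 3% and 1.46% of all tested genes were. The lower ones, named after their values were seen, were CDKN1A, the receptor gene ERBB3 and the transcription factor gene MYC. ERBB3 had counts of 94 and 35 in vector cells against 14 and 27 in LGP2 cells, and its log2 fold change of -1.67 (SE 0.74) was -0.79 without vector replicate 2. MYC was at -0.45 (SE 0.18), -0.19 without vector replicate 2 and -0.68 without vector replicate 3, where it passed (adjusted p = 0.00506 by edgeR).

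**Figure D4:**
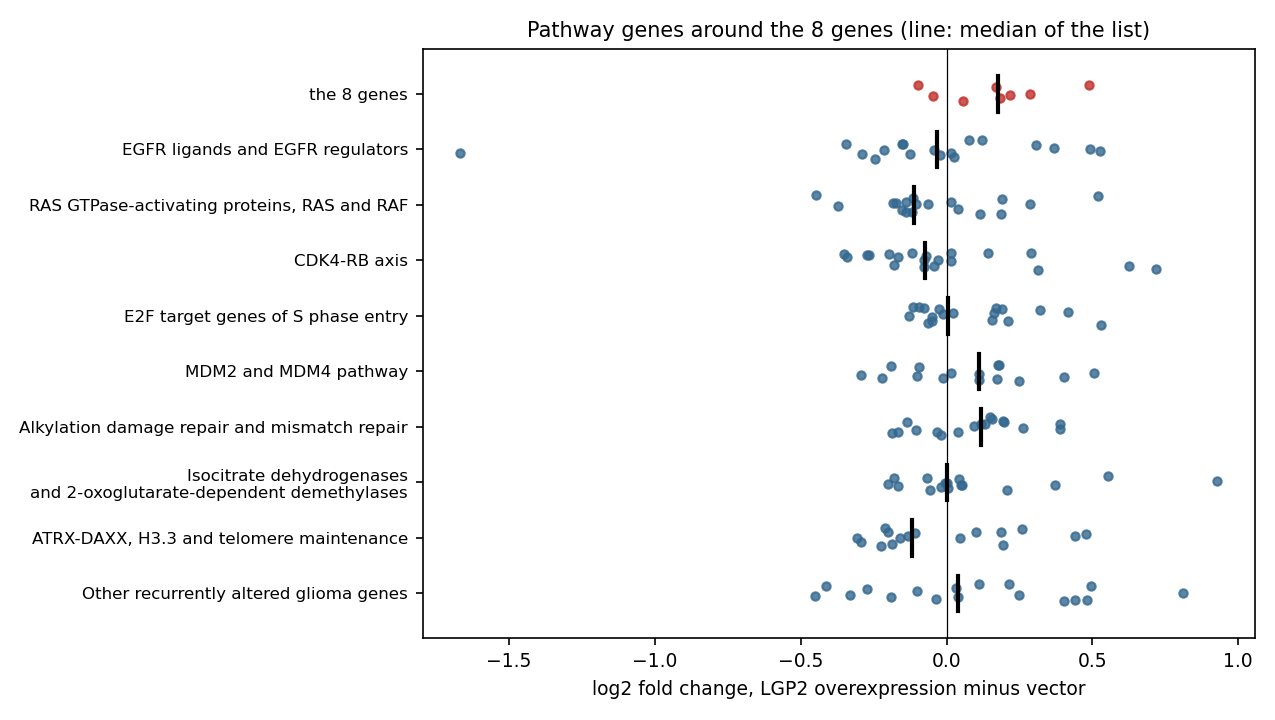
Log2 fold change, LGP2 overexpression minus vector, of each tested gene (points) in the 8 genes and in the 9 pathway lists around them, with the median as a black line. Medians run from -0.12 for the ATRX-DAXX, H3.3 and telomere list to 0.18 for the 8 genes, and no point passed the test.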

How the data were processed

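RNA-seq libraries of T98G cells were prepared from TRIzol RNA with the SMARTER kit, per the labels' protocols. The authors deposited raw counts per gene symbol, 1 column per library. The submitters' processing notes name the mouse build mm10, although the symbols are human; for aligner, counter, annotation and strand setting nothing is given in the sources used here.

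Gene symbols were looked up in GENCODE 29 (GRCh38) (19831 exactly, 461 through gene IDs, 621 unmatched), which supplied positions, lengths, GC content and exon overlaps. Levels are CPM per library total. Counts were tested with the two-sided quasi-likelihood test of edgeR 4.0.16 (R 4.3.3), TMM scaling (factors 0.951 to 1.03), filterByExpr by group, no covariate, and Benjamini-Hochberg adjustment over 17863 genes, and were called at an adjusted p under 0.05. The standard error (SE) comes from the F statistic. The common biological coefficient of variation was 25.9%. Alternatives used DESeq2 1.42.0, limma-voom (limma 3.58.1), other scalings and filters, a replicate block and each library left out.

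The genes and lists were chosen with earlier results of these data known. The genes named are the 8 members, DHX58, called genes or otherwise the 2 most abundant of each list, exon-overlapping genes and the nearest profile of each member; marker genes serve as checks, and others are marked as chosen after their values were seen. Some genes are in more than 1 list. Results for some listed genes are not reported here.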

Additional observations from a re-analysis of the deposited data

How the results depend on the processing

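Of 103 log2 fold changes of single members under the alternatives, 92 kept their direction and stayed uncalled. The direction turned with GC and length offsets for EGFR (-0.077), MDM4 (-0.048), ATRX (-0.14) and CDK4 (0.0038), and with library totals alone for CDK4 (0.0047). The median over all tested genes was itself -0.057 with the offsets and 0.038 with library totals alone, against -0.0080 in the main fit. Fits that left 1 library out ran from -0.21 to 0.28 for EGFR (-0.0056 without vector replicate 3), from -0.32 to 0.15 for MGMT, from -0.050 to 0.43 for MDM4 and from -0.17 to 0.089 for CDK4. The cause was not tested. Members called stayed at 0 except for RB1 without vector replicate 3 (from 0 to 1 over fits without 1 library). Without 1 library the list median ran from -0.061 to 0.083 for EGFR ligands and regulators, from 0.0013 to 0.082 for E2F targets and from -0.020 to 0.15 for further glioma genes. MGMT was removed by a filter of 5 CPM in 2 libraries.

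Over all genes 3 were called higher and 0 lower. The counts were 1 and 0 with no filter, 4 and 2 with the filter of 5 CPM, 14 and 9 with DESeq2, 4 and 2 with limma-voom and 3 and 1 with the offsets. Without 1 library they ran from 1 to 291 higher and from 1 to 141 lower. With the replicate number as a block they were 5 and 3. Replicate differences of the 2 groups correlated at 0.031 across genes. The labels do not say what the number marks, and this correlation cannot show whether libraries of the same number shared a culture or day. The block called 0 members and left RB1 at 0.54 (adjusted p = 0.602 by edgeR). A fit without 1 library takes its spread from the group that keeps both.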

Other observations

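The spans of NF1 and RB1 hold other genes on the opposite strand, whose levels did not follow their hosts in every library. Those other than EVI2A and AC138207.2 share no exonic base with the host and were chosen after their values were seen. Within NF1, EVI2A, which encodes a membrane protein and overlaps 0.56% of the exonic bases of NF1, was at 5.69 and 4.73 CPM in vector replicates 2 and 3 and at 5.93 and 7.91 CPM in LGP2 replicates 2 and 3, so that vector replicate 2, the lowest library for NF1, was not the lowest for EVI2A. The antisense RNA AC138207.2, which overlaps 0.527% of the exonic bases of NF1, had a log2 fold change of -0.19 (SE 0.36). EVI2B averaged 2.05 ± 0.174 CPM in vector cells against 2.25 ± 0.529 CPM in LGP2 cells (SD, n = 2). OMG, which encodes a myelin glycoprotein of oligodendrocytes, had counts of 0 and 20 in vector cells against 7 and 11 in LGP2 cells. Within RB1, LPAR6, a receptor for lysophosphatidic acid, had counts of 34 and 193 in vector replicates 2 and 3 and 139 and 143 in LGP2 replicates 2 and 3, with the same low library as RB1. RCBTB2, which overlaps the RB1 span, measured 3.02 and 3.94 CPM in vector cells against 5.21 and 4.41 CPM in LGP2 cells. Its LGP2 libraries were both above both vector libraries, as for 19% of all tested genes (log2 fold change 0.43, SE 0.29, not called). Whether reads from retained introns of the hosts enter these counts was not tested.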
